A study of Homo sapiens with 6 samples.

Results

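The TCA cycle and respiratory chain genes examined here were 54 listed nuclear genes, sorted by role into the TCA cycle with its pyruvate entry and transhydrogenase (15 genes), NADH dehydrogenase or complex I (15), succinate dehydrogenase or complex II (4), the cytochrome bc1 complex or complex III (5), cytochrome c oxidase or complex IV (8) and ATP synthase or complex V (7). Every probe set annotated to a single listed gene was used, which gave 111 of the 54675 probe sets on the array and measured 50 of the 54 genes. The expression of FH, SDHB, UQCRFS1 and NDUFS8 was not analysed here, whereas the promoter search below was over the full list of 54. The RNA came from NCI-H226, an established human mesothelioma cell line, grown either as adherent monolayers (3 cultures) or as spheroids (3 cultures), with 1 Affymetrix U133 Plus 2.0 array per culture. Spheroids formed without matrix in poly-HEMA coated wells from 10000 cells each over 24 hours of incubation, whereas monolayers stayed attached to plastic, so the groups differ in attachment as well as in shape. Both groups are the same line, without a drug or a genetic change named in the labels.

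The TCA cycle oxidizes acetyl groups in the mitochondrial matrix and passes the electrons to NADH and to succinate dehydrogenase. Complexes I to IV carry these electrons to oxygen. All of them but complex II pump protons across the inner membrane, and complex V uses the proton gradient to make ATP. Low oxygen is known to shift cells away from this route, partly through pyruvate dehydrogenase kinases, which block the entry of pyruvate into the cycle. The genes of the mitochondrial genome that encode the core of several complexes are not among those examined.

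Most of the transcripts were abundant. The brightest probe set of 42 of the 50 measured genes lay in the top decile of all probe sets by mean level. Signals below are linear MAS5 values in arbitrary units. A fold change is the difference of mean log2 signals, spheroids minus monolayers, after the median of each array was set equal. The probe set with the highest mean level stood for its gene, which was called when the Benjamini-Hochberg adjusted p over 54613 probe sets was under 0.05 by limma.

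Among 10 mesothelial markers, KRT7, KRT18, KRT19 and WT1 read 1347 or more on all 6 arrays, and the others were dimmer or uneven. THBD read 54.3 to 348.7, and KRT5 read 1845, 130 and 79.3 in monolayers and 910.5, 267 and 290 in spheroids. Monolayer 1 stood apart in some. CALB2, the gene of calretinin, read 1582 in monolayer 1 but 163 and 83.6 in the other monolayers. In spheroids it read 2238, 1317 and 1765 (2.49, not called). Of the 10 mesothelial markers, 9 had a positive fold change. PDPN was the 1 called, higher in spheroids (1.10, adjusted p = 0.040 by limma). Leukocyte markers were dim but moved with the culture, as 3 of the 4 measured were higher on every spheroid than on every monolayer array. Their summed signal was 104.4 to 127.1 in monolayers and 143.3 to 179.2 in spheroids, and none of the 4 was called. The 5 endothelial markers summed to 233.8 to 474.3 in monolayers and 171.4 to 222.2 in spheroids, sums carried by KDR in monolayer 1 (422.2) and TIE1 in monolayers 2 and 3 (204.4 and 205.2). By contrast VWF was higher on every spheroid array (2.01), 3 of the 5 had a positive fold change, and none was called. The part of these markers in the results was not tested.

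The arrays also differed in scale. Monolayer arrays had median signals of 14.6 to 14.7, spheroids 1 and 3 of 15.6 and 15.2, and spheroid 2, which stood apart, of 18.05. Setting the medians equal lowered the spheroids by 0.15 on the log2 scale relative to the values as deposited, and the median fold change of all probe sets was -0.08 after centring and 0.07 as deposited. Medians are therefore given on both scales. RNA integrity, read as the 3'/5' signal ratio of ACTB, was 1.09 to 1.11 in monolayers and 1.11 to 1.23 in spheroids. The same ratio of GAPDH did not separate the groups, at 0.88 to 0.91 in monolayers and 0.89 to 0.91 in spheroids. The part of RNA integrity in the results was not tested.

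Of the 50 measured genes, 4 were downregulated in spheroids and 0 were upregulated. The downregulated genes were IDH3A of the TCA cycle, NDUFA9 of complex I, SDHA of complex II and ATP5MC1 of complex V. None of the measured genes of complexes III and IV was called at its brightest probe set. The share called lower was 8% of the genes, against 9.22% of all genes read the same way, 6.65% of all probe sets and 16.0% of the probe sets in the top decile of level. The share called higher was 0%, against 3.88% of all genes, 2.78% of all probe sets and 5.66% of the top decile. The count of downregulated members was thus near that of all genes. As deposited the same 4 genes were called lower and 0 higher, against 7.58% and 6.76% of all genes. None of the 50 was called by limma without the mean-variance trend, where 0.718% of all genes were called lower, or by the methods' t-test after adjustment, where 2.65% were. Without adjustment, 17 of the 50 genes were lower and 0 higher at p under 0.05 by limma, against 17.9% and 9.62% of all genes. Among probe sets, 7 of 111 (6.31%) were downregulated and 0 were upregulated. In such bulk RNA, fewer cells of a type and less RNA per cell cannot be told apart.

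The promoter-proximal sequences of the downregulated genes are shown with those of SDHD and COX5B, which were not called and were picked because they hold a match, so the sequences do not compare called with uncalled genes. A match to any searched motif was found in 1 of the 4 called genes, in 4 of the 5 uncalled genes with a positive fold change and a promoter given, and in 17 of the 32 with a negative one. Each sequence is the stretch of 100 bases just before the transcription start, 5′ to 3′ on the coding strand (RefSeq, GRCh38.p14), with matches to the searched motifs in capitals.
IDH3A, chr15:78149262-78149361, plus strand: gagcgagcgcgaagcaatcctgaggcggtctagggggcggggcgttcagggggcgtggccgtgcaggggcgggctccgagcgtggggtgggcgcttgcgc
NDUFA9, chr12:4649014-4649113, plus strand: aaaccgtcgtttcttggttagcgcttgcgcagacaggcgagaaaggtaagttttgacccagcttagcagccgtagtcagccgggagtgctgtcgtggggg
SDHA, chr5:218220-218319, plus strand: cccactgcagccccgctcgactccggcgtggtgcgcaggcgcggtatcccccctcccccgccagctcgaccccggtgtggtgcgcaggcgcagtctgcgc
ATP5MC1, chr17:48892687-48892786, plus strand: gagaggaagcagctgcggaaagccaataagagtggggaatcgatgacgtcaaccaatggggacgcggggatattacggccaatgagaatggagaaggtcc
SDHD, chr11:112086773-112086872, plus strand: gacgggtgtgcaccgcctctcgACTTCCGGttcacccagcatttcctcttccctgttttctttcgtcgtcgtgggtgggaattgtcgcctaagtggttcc
COX5B, chr2:97645962-97646061, plus strand: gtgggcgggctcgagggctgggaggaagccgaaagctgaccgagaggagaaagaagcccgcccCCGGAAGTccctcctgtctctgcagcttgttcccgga
The capitals in SDHD and COX5B mark the ETS motif bound by GABP, CCGGAAGT, on the reverse and forward strand, and another COX5B match runs across the start. In the stretches of IDH3A, NDUFA9, SDHA and ATP5MC1 none of the searched letters occurred.

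Known regulators of respiratory genes include NRF1, GABP, the estrogen-related receptors and YY1, and motifs for each were searched on both strands from 250 bases before to 50 bases after the start. Promoters were given for 45 of the 54 genes (53 promoters, since some genes have several, which can overlap). The NRF1 core GCGCATGC was in 7 of the 53 (13.2%), against 3.05% of all 35116 promoters. The ETS motif CCGGAAGT was in 9 (17.0%), against 4.14%. The estrogen-related receptor motif AAGGTCA was in 7 (13.2%), against 3.92%. The YY1 core AAGATGGC was in 9 (17.0%), against 2.89%, and NDUFA9 held it just after the start. SDHD and SDHB each held 3 of the 4 motifs. A match is a description of letters, and these shares are not tests.

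**Figure D1:**
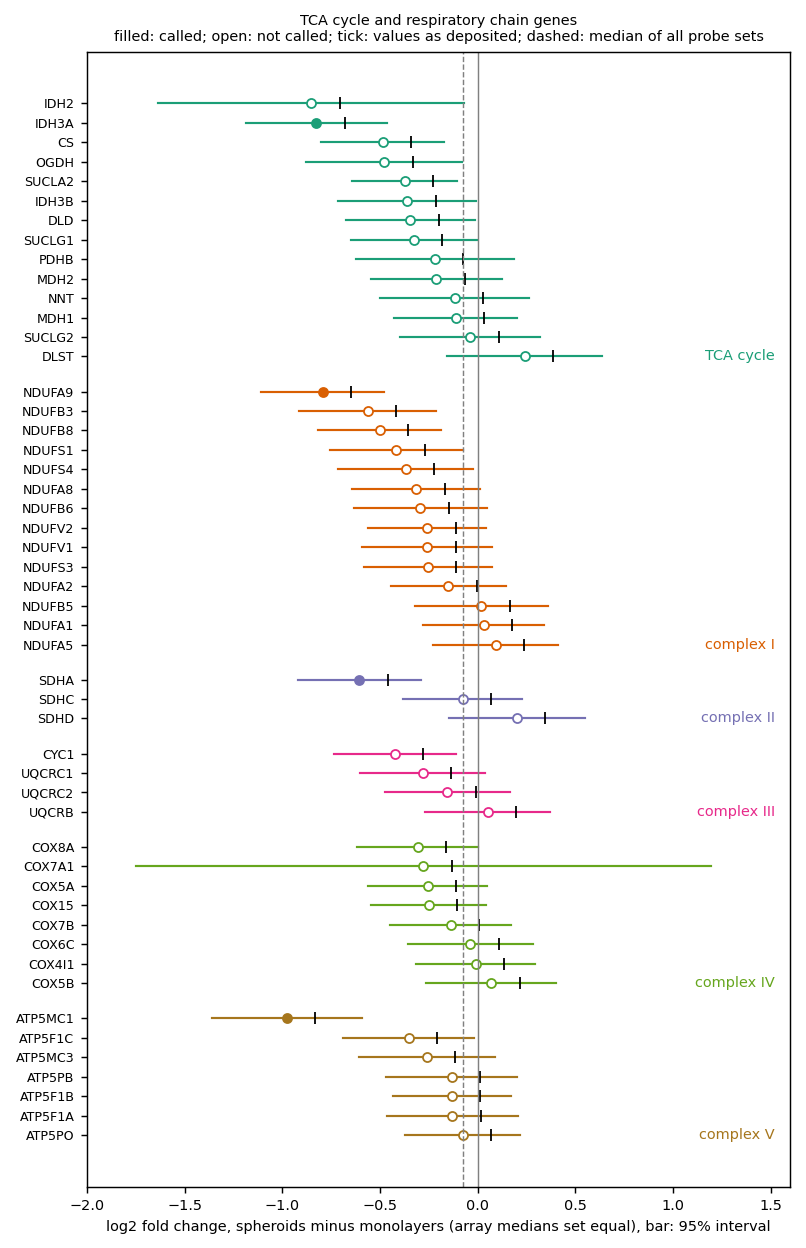
Log2 fold change of each of the 50 measured genes by role group, spheroids minus monolayers, at the brightest probe set. Circles are the centred values with 95% intervals from limma (filled where called), short ticks are the values as deposited, and the dashed line is the median of all probe sets (-0.08). The 4 filled genes lie between -0.98 and -0.61, and 43 of 50 circles lie below 0, against 10682 of 19775 for all genes.

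Direction was more uniform than the calls. On the centred scale 43 of the 50 genes were negative and 7 positive. Negative fold changes were found in 10682 of all 19775 genes and in 3465 of the 5462 probe sets of the top decile. The median of the 50 was -0.26, against -0.06 for all genes and -0.13 for the top decile of probe sets. As deposited, 32 were negative and 18 positive with a median of -0.11, against 0.08 for all genes and 0.02 for the top decile. After quantile normalization 39 were negative and 11 positive with a median of -0.13, against 0.02 and -0.01. The median of the genes was thus below the median of all genes on each of the 3 scales. In 24 of the 50 genes every spheroid array was below every monolayer array and in 0 every spheroid was above, against 17.6% and 10.2% of all probe sets. As deposited the same counts were 17 and 7, against 13.5% and 15.7% of all probe sets.

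Spheroid 2 carried much of this shift. The median deviation of the 50 genes from their own mean over the 6 arrays was 0.11, 0.13 and 0.09 in monolayers, against -0.03, -0.33 and 0.03 in spheroids. Spheroid 3 was thus closer to the monolayers than to spheroid 2. As deposited the deviations were 0.03, 0.06 and 0.03 in monolayers and -0.02, -0.10 and 0.01 in spheroids. Spheroid 2 was the lowest spheroid array in 46 of 50 genes after centring and in 34 as deposited. Without it the median fold change of the genes was -0.13, with no median of all genes given for that setting. There 3 genes were called lower (ATP5MC1, IDH3A and NDUFA9), against 5.52% of all genes.

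**Figure D2:**
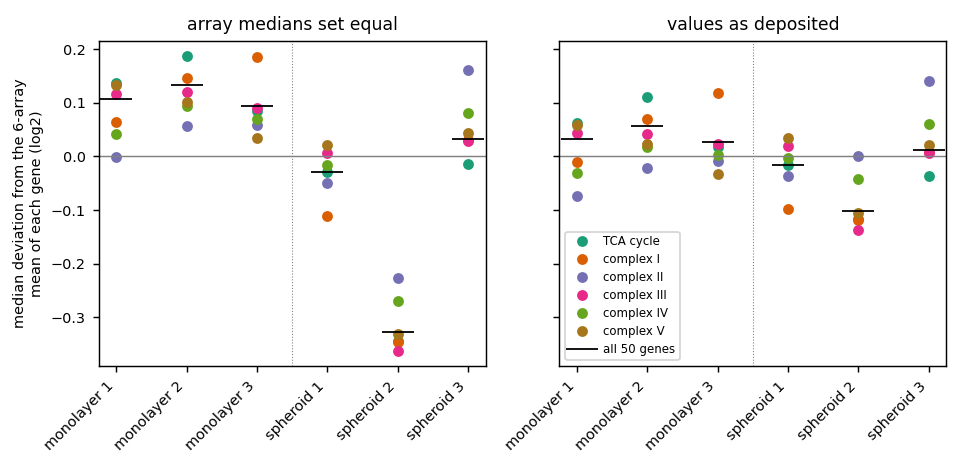
Median log2 deviation from each gene's own 6-array mean, on each array, after setting array medians equal (left) and as deposited (right). Points are the 6 role groups and bars all 50 genes. Spheroid 2 lies lowest on the left at -0.33, and the gap narrows to -0.10 on the right.

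The TCA cycle genes gave the lowest group median, -0.34 over 14 genes, or -0.19 as deposited and -0.18 after quantile normalization. IDH3A, the catalytic subunit of the NAD-dependent isocitrate dehydrogenase, was the only one of the 14 called at its brightest probe set. Its signals were 771, 738 and 882 in monolayers, against 445, 479 and 571 in spheroids. The groups did not overlap, and the mean went from 797 ± 75.6 (SD, n = 3) to 498 ± 65.6 (SD, n = 3). The fold change was -0.83 (SE 0.16, adjusted p = 0.013 by limma). The second IDH3A probe set gave 427, 381 and 402 against 236, 256 and 262, with the same fold change of -0.83 (adjusted p = 0.006 by limma). Without monolayer 3 the brightest IDH3A probe set was no longer called.

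IDH3B, a partner subunit of the same enzyme, differed between its probe sets. The brightest read 473, 632 and 620 in monolayers and 444, 510 and 522 in spheroids, which overlapped, with a fold change of -0.36 (adjusted p = 0.213 by limma). A dimmer probe set read 233, 312 and 315 against 153, 165 and 152. It did not overlap and was called lower at -1.01 (adjusted p = 0.005 by limma). The third IDH3B probe set gave -0.42 and was not called.

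CS, the citrate synthase that opens the cycle, read 1352, 1671 and 1764 in monolayers and 1217, 1464 and 1099 in spheroids. Spheroid 2 was above monolayer 1 as deposited, so the groups overlapped, but not after centring. Its fold change of -0.49 had an interval from -0.80 to -0.17 and was not called (adjusted p = 0.063 by limma). SUCLA2, the ATP-forming succinyl-CoA ligase subunit, read 1266, 1182 and 1321 against 989, 1167 and 1067 and did not overlap, at -0.37 (adjusted p = 0.090 by limma). IDH2, the mitochondrial NADP-dependent isocitrate dehydrogenase, had the lowest fold change of the group at -0.85, but its arrays overlapped, with 242, 180 and 131 in monolayers and 181, 81.5 and 89.2 in spheroids (adjusted p = 0.182 by limma).

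The remaining TCA cycle genes spanned -0.48 for OGDH, the E1 subunit of the 2-oxoglutarate dehydrogenase complex, to 0.24 for DLST, the E2 subunit of that complex. DLST was the only positive gene of the 14 on the centred scale. The malate dehydrogenases gave -0.11 (MDH1, cytosolic) and -0.21 (MDH2, mitochondrial), and the GTP-forming ligase subunit SUCLG2 gave -0.04. None of these was called.

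Complex I, the NADH dehydrogenase, had a median of -0.28 over 14 genes, or -0.13 as deposited and -0.15 after quantile normalization. NDUFA9, an accessory subunit near the ubiquinone site, was the only one called. It read 1009, 1212 and 1222 in monolayers, against 698, 733 and 758 in spheroids. The lowest monolayer was clearly above the highest spheroid, and the mean fell from 1148 ± 120.5 (SD, n = 3) to 730 ± 30.3 (SD, n = 3). The fold change was -0.79 (SE 0.14, adjusted p = 0.008 by limma). NDUFA9 has 1 probe set here, and its call was lost without monolayer 2.

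NDUFB3 and NDUFB8, accessory subunits of the membrane arm, came next. NDUFB3 read 876, 1036 and 1076 in monolayers and 673, 729 and 835 in spheroids. NDUFB8 read 1770, 2208 and 2202 against 1441, 1729 and 1642. Neither overlapped, and the fold changes of -0.56 and -0.50 did not pass (adjusted p = 0.054 and 0.057 by limma). Both were called when monolayer 1, the lowest monolayer in each, was left out. The other 11 genes lay between -0.42 for NDUFS1, a subunit that holds iron-sulfur clusters of the electron path, and 0.09 for NDUFA5. The flavoprotein subunits NDUFV1 and NDUFV2, where NADH is oxidized, both gave -0.26, and NDUFA1 and NDUFB5 gave 0.03 and 0.02.

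Complex II links the cycle to the chain, and its 3 measured subunits did not share a direction. Their median was -0.08 after centring, 0.07 as deposited and 0.09 after quantile normalization. SDHA, the flavoprotein that oxidizes succinate, read 716, 803 and 789 in monolayers, against 551, 535 and 589 in spheroids. Its groups did not overlap, and the mean went from 769 ± 46.6 (SD, n = 3) to 558 ± 27.5 (SD, n = 3), at -0.61 (SE 0.14, adjusted p = 0.027 by limma). This single probe set may also read SDHA pseudogenes, which are near copies, and the SDHA call was lost without monolayer 2, monolayer 3, spheroid 1 or spheroid 2. SDHD, a membrane anchor, read 1525, 1616 and 1623 in monolayers and 2136, 1810 and 2126 in spheroids. Every spheroid array was above every monolayer array as deposited, but the centred groups overlapped. Its fold change was 0.20 with an interval from -0.15 to 0.55 (adjusted p = 0.515 by limma), and 0.35 as deposited (adjusted p = 0.056 by limma). SDHC, the other anchor, gave -0.08 on the centred scale (interval from -0.38 to 0.23) and 0.07 as deposited. None of its 7 probe sets was called, but they differed. Another SDHC probe set of the top decile read 568, 720 and 696 in monolayers and 775, 957 and 976 in spheroids, at 0.30. A dimmer SDHC probe set gave 0.47, and in both every spheroid was above every monolayer after centring. The rest gave 0.04, -0.03, -0.23 and -0.52. The difference between the subunits was not tested.

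**Figure D3:**
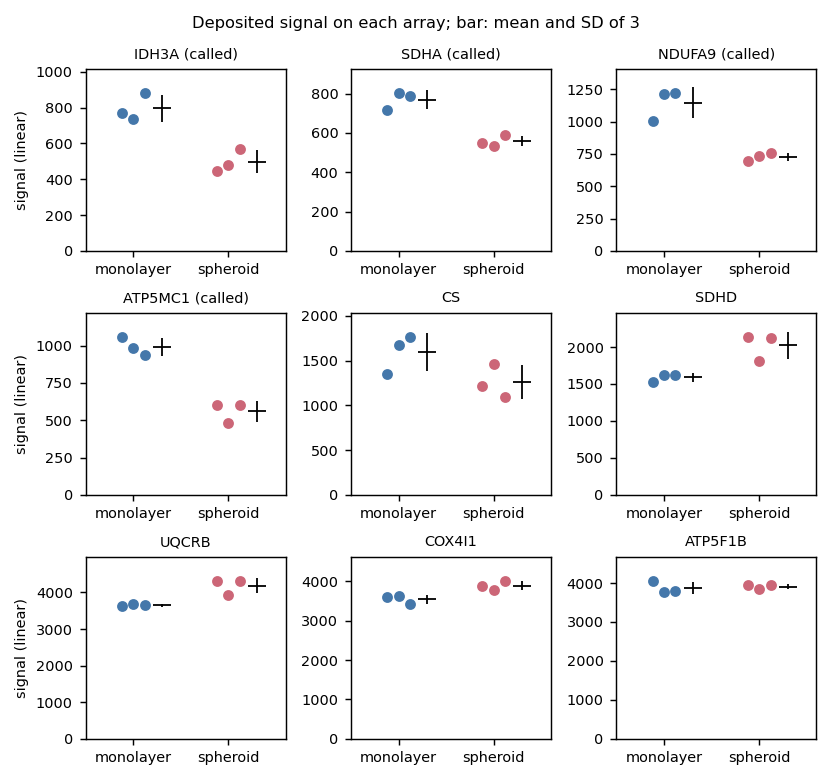
Deposited signal (linear, from 0) on each array for the 4 called genes and 5 uncalled ones. Points are arrays in order of replicate number and crosses are means with SD (n = 3). IDH3A, SDHA, NDUFA9 and ATP5MC1 separate fully with spheroids lower. SDHD, UQCRB and COX4I1 separate with spheroids higher on these deposited values, but not after centring. ATP5F1B overlaps near 4000 in both cultures.

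Complex III had a median of -0.22 over 4 genes (-0.07 as deposited). CYC1, the cytochrome c1 that hands electrons to cytochrome c, read 2438, 2342 and 2455 in monolayers and 2007, 1885 and 2073 in spheroids. The groups were well apart, yet at -0.42 the gene was not called (adjusted p = 0.096 by limma), and it was called after quantile normalization (-0.34, adjusted p = 0.020 by limma). The core proteins UQCRC1 and UQCRC2 gave -0.28 and -0.16. UQCRB, a ubiquinone-binding subunit, gave 0.05 with an interval from -0.27 to 0.37 and 0.20 as deposited, where its spheroids lay above its monolayers.

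Complex IV held some of the brightest genes, and none of its brightest probe sets was lower by more than 0.31 on the log2 scale. Its median was -0.19 over 8 genes, or -0.05 as deposited, and -0.01 without spheroid 2. COX4I1, the ubiquitous form of subunit 4, read 3591, 3622 and 3418 in monolayers and 3871, 3784 and 4008 in spheroids, a fold change of -0.01 after centring (interval -0.32 to 0.30) and 0.13 as deposited. A dim COX4I1 probe set read 49.6, 46.9 and 55.5 against 19.0, 27.0 and 31.5, and was called lower at -1.14 (adjusted p = 0.028 by limma). COX8A, COX5A and COX15, the last a heme A synthesis enzyme rather than a subunit, gave -0.31, -0.26 and -0.25 and were not called. COX5B gave 0.07 and COX6C -0.04.

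A dim COX7B probe set had every spheroid above every monolayer, with 50.0, 39.6 and 44.0 against 92.8, 68.1 and 80.2. It was not called after centring (0.70, adjusted p = 0.095 by limma), but it was the 1 member probe set called higher as deposited and after quantile normalization. The bright COX7B probe set gave -0.14. COX7A1, the heart and skeletal muscle form of subunit 7a, was the dimmest gene, at 2.49, 2.96 and 2.60 in monolayers and 1.76, 1.82 and 4.51 in spheroids. These values overlapped, and the interval from -1.75 to 1.19 leaves its direction unresolved. The 4 muscle markers measured beside it summed to 56.0 to 58.1 in monolayers and 40.9 to 57.1 in spheroids, with 0 called.

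Complex V had a median of -0.13 over 7 genes, 0.01 as deposited and -0.12 after quantile normalization. ATP5MC1, which encodes the c subunit of the rotor ring, had the lowest fold change of all 50 genes. It read 1058, 985 and 938 in monolayers, against 600, 479 and 604 in spheroids. The groups were far apart, and the mean fell from 994 ± 60.7 (SD, n = 3) to 561 ± 70.7 (SD, n = 3), at -0.98 (SE 0.17, adjusted p = 0.008 by limma). ATP5MC1 was called without any 1 of the 6 arrays. It has 1 probe set here, of the type that may cross-read (_s_at). ATP5MC3, a separate gene for the same mature c subunit, read 3069, 2979 and 2807 against 2847, 2465 and 2876 and overlapped as deposited. Its fold change was -0.26 with an interval from -0.61 to 0.09.

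ATP5F1A and the catalytic subunit ATP5F1B both gave -0.13. ATP5F1B read 4054, 3773 and 3803 in monolayers and 3938, 3839 and 3948 in spheroids, with an interval from -0.43 to 0.17. The central stalk subunit ATP5F1C gave -0.35 and the stator subunits ATP5PB and ATP5PO -0.13 and -0.08, with no call. A dim ATP5F1C probe set had the lowest fold change of all 111 at -1.71 and was not called (adjusted p = 0.052 by limma).

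Across all 50 genes, the 95% interval lay within a 2-fold change in either direction for 45. The exceptions were the called IDH3A, NDUFA9 and ATP5MC1 and the uncalled IDH2 and COX7A1.

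Genes that act beside these enzymes were read from further lists. Of 17 measured genes of the cycle and pyruvate entry outside the 54, 2 rose and 2 fell, with a median of -0.16 (-0.02 as deposited, where 2 rose and 1 fell). The cytosolic enzymes ACO1 (aconitase, also an iron regulatory protein) and IDH1 (NADP-dependent isocitrate dehydrogenase) rose. ACO1 read 1466, 1457 and 1117 in monolayers and 2321, 2219 and 2545 in spheroids (0.67, adjusted p = 0.037 by limma). IDH1 read 767, 572 and 389 against 1140, 1056 and 1226 (0.89, adjusted p = 0.049 by limma). The mitochondrial malic enzyme ME2 fell by 0.71 and glutamate dehydrogenase GLUD1 by 0.61 on the log2 scale. GLUD1 was not called as deposited (adjusted p = 0.062 by limma). The IDH1 and GLUD1 calls were lost without any array but monolayer 1, and that of ACO1 without monolayer 2, monolayer 3, spheroid 1 or spheroid 3.

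Among 11 measured pyruvate dehydrogenase kinases and genes linked to hypoxia-inducible factor in mitochondria, 2 rose and 1 fell, with a median of 0.09 (0.23 as deposited, where 3 rose and 1 fell). PDK1, a kinase that inactivates pyruvate dehydrogenase, read 135, 234 and 230 in monolayers and 522, 376 and 402 in spheroids (1.004, adjusted p = 0.036 by limma). BNIP3L, a mitophagy receptor, read 839, 1643 and 1532 against 3257, 3306 and 3483 (1.24, adjusted p = 0.014 by limma). For both genes monolayer 1 was the lowest array and no groups overlapped. BNIP3, its relative, gave 0.72 without a call (adjusted p = 0.067 by limma, and 0.036 as deposited). CHCHD4, which imports and oxidizes small proteins of the intermembrane space, fell by 0.55 on the log2 scale. The PDK1 and CHCHD4 calls were lost without any array but monolayer 1, and that of BNIP3L without spheroid 3.

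Few of the other subunits were called. Of 19 further complex I subunits 0 rose and 1 fell (NDUFA7, -0.55, not called without monolayer 2, monolayer 3, spheroid 1 or spheroid 2), with a median of -0.20 (-0.05 as deposited). As deposited 2 fell, NDUFA7 and NDUFA12, and after quantile normalization 3, with NDUFA12 among them (adjusted p = 0.022 and 0.009 by limma) but not NDUFA7 (adjusted p = 0.059 by limma). Of 12 further genes of complexes III and IV with cytochrome c, 0 rose and 0 fell on either scale (median -0.03, or 0.11 as deposited with 9 of 12 positive), and CYCS, cytochrome c itself, gave -0.20. Of 12 further complex V genes 0 rose and 0 fell after centring (median -0.06, or 0.08 as deposited). Its inhibitor ATP5IF1 gave -0.53 without a call after centring (adjusted p = 0.054 by limma) and was called lower as deposited (-0.38, adjusted p = 0.046 by limma).

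Assembly factors build the complexes but are not part of them. Of 38 measured, 12 fell (31.6%) and 0 rose, with a median of -0.33 (-0.18 as deposited, with 12 lower and SURF1 higher). Of the 38, 34 lay in the 3 brightest deciles of level, where 15.6%, 21.0% and 16.0% of probe sets were called lower, and 9.22% of all genes were. SDHAF3, an assembly factor of complex II, read 256, 359 and 261 in monolayers and 79.2, 92.0 and 71.8 in spheroids (-1.99, SE 0.17). BCS1L, which inserts the Rieske protein into complex III, read 222, 288 and 330 against 103, 109 and 103 (-1.54, SE 0.17). The complex I factors NDUFAF4 and NDUFAF6 fell by 1.01 and 1.08 on the log2 scale. Each of these had an adjusted p between 6.16e-04 and 0.00212 by limma, and for each the lowest monolayer was above the highest spheroid. In the top decile lay 15 of the 38, against 42 of the 50 enzyme and subunit genes.

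Regulators of mitochondrial biogenesis and of mitochondrial DNA expression gave 7 lower (29.2%) and 1 higher (4.17%) of 24. The shares of all genes were 9.22% and 3.88%. The median of the 24 was -0.33 (-0.18 as deposited, with 6 lower and 1 higher). In the 3 brightest deciles, where 15.6%, 21.0% and 16.0% of probe sets were called lower, lay 20 of the 24. TWNK, the mitochondrial helicase, read 310, 228 and 220 in monolayers and 121, 127 and 124 in spheroids (-1.16, adjusted p = 0.004 by limma). PPRC1, a coactivator of the PGC-1 family, fell by 0.97 and TFAM, a packaging protein and transcription factor of mitochondrial DNA, by 0.70. The mitochondrial RNA polymerase POLRMT was called lower at -0.66, but the mean of its probe sets gave 0.05. The calls of TFAM and POLRMT were lost without monolayer 2 or monolayer 3, and that of POLRMT also without spheroid 3. Of the factors whose motifs were searched, NRF1 gave -0.40 and YY1 -0.16. The GABP subunits went apart, GABPA at 0.25 and GABPB1 at -0.49 (adjusted p = 0.057 by limma). The estrogen-related receptors ESRRA, ESRRB and ESRRG gave 0.07, -0.46 and 0.40. None of these factors was called. PPARGC1A, the gene of PGC-1alpha, was dim, with a mean of 8.35 in monolayers and 8.95 in spheroids.

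Mitochondrial carriers and channels, uncoupling proteins and shuttle enzymes, which include outer membrane and cytosolic proteins, gave 8 lower (32%) and 0 higher of 25. Of all genes 9.22% were called lower and 3.88% higher. Of the 25, 21 lay in the 3 brightest deciles, where 15.6%, 21.0% and 16.0% of probe sets were called lower. The median of the 25 was -0.35. As deposited 6 were lower and 0 higher, with a median of -0.21. The aspartate aminotransferases of the malate-aspartate shuttle both fell. GOT1, the cytosolic form, read 757, 880 and 844 in monolayers and 421, 461 and 511 in spheroids (-0.98, adjusted p = 0.004 by limma). GOT2, the mitochondrial form, read 1759, 1827 and 1881 against 1320, 1220 and 1268 (-0.67, adjusted p = 0.015 by limma), with the call lost without monolayer 2 or monolayer 3. DHODH, the pyrimidine synthesis enzyme that feeds electrons to ubiquinone, fell by 1.36 on the log2 scale, from 87.1, 97.4 and 90.7 to 38.04, 48.4 and 33.3. The dicarboxylate carrier SLC25A10 fell by 0.95. Whether any of these lists differed from the 54 genes was not tested.

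**Figure D4:**
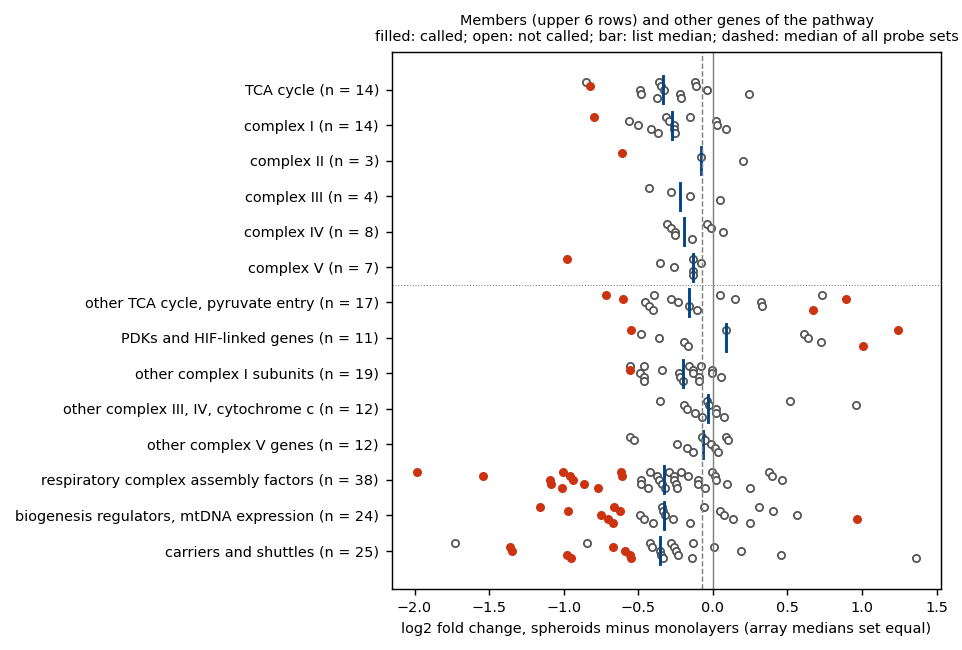
Log2 fold change of every measured gene of the 6 role groups (above the dotted line) and of the 8 further lists (below it), spheroids minus monolayers after centring. Points are genes (filled where called by limma), bars are list medians, and the dashed line is the median of all probe sets (-0.08). The filled points of the assembly factor list number 12, all below 0.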

How the data were processed

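RNA of 3 monolayer and 3 spheroid cultures of NCI-H226 was hybridized to 1 array each. The deposited values are linear signal intensities per probe set that the authors computed with MAS5, scaled to an equal trimmed mean. The methods name a median normalization, which the deposited medians do not show. Detection calls and scanner signals were not used here, so the distance of a dim signal from background is unknown and precision is limited by the 3 arrays per group. Probe sets were named from the platform annotation: 41097 carried 1 gene symbol, 1801 several and 11777 none, and 5 that share a listed gene with another gene were left out.

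Signals were transformed to log2 with no pseudocount or filter and centred on each array's median. The 62 controls were removed and the other 54613 probe sets compared by limma 3.58.1 under R 4.3.3 with a mean-variance trend and Benjamini-Hochberg adjustment at 0.05. The labels call the replicates biological. The members and lists were chosen with earlier results of these data known. Members named were those called, the 3 of smallest p in each role group and COX7A1, and up to 4 genes of smallest adjusted p were taken from each other list. Others were named to give a group's range, a gene's second probe set or a factor whose motif was searched, after their values were seen. Alternatives were no centring, quantile normalization, a floor set at percentile 20, probe sets above the median level alone, limma with no trend, the methods' t-test (adjusted and unadjusted), a replicate block, the mean of a gene's probe sets, no cross-reading probe sets (_s_at or _x_at) and each array left out. Promoter sequences came from RefSeq (GRCh38.p14).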

Additional observations from a re-analysis of the deposited data

How the results depend on the processing

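Of the 50 genes, 4 were called lower with array medians set equal (9.22% of all genes). The count was 4 as deposited (7.58%), 5 after quantile normalization (7.63%), 4 with the floor (7.10%), where SUCLA2 took the place of SDHA, 9 among probe sets above the median level (18.1%) and 7 with the mean of a gene's probe sets (7.47%). It was 0 without the trend (0.718%), 0 by the methods' t-test adjusted (2.65%) and 12 by that test unadjusted (15.9%). Without cross-reading probe sets it was 3 (6.94%), of which NDUFA9 was among the original calls. SDHA and ATP5MC1 had no probe set left in that setting and were not tested. IDH3A was read there from its dim probe set and was not called. Leaving out each array gave 2 to 7 genes (2 without monolayer 2 or monolayer 3, where 4.48% and 4.61% of all genes were called, and 7 without monolayer 1, where 10.8% were). For member probe sets called lower, 7 with medians set equal, the count was 13 above the median level, 0 without the trend, 1 and 20 by the t-test adjusted and unadjusted, 3 without cross-reading probe sets and 4 to 11 with an array left out. Probe sets called higher numbered 1 as deposited, 1 after quantile normalization and 3 by the unadjusted t-test. No member gene was called higher in any of the 16 alternatives.

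The median of complex IV ranged from -0.23 to -0.012 with an array left out. Fold changes turned sign for SDHC (0.069 as deposited, 0.086 after quantile normalization, -0.18 to 0.017 with an array left out, the latter without spheroid 2), COX7A1 (0.18 with the floor, -0.77 to 0.00817 with an array left out, the latter without spheroid 2), ATP5PF (0.012 as deposited) and POLRMT (0.048 with the mean of its probe sets, 0.44 without cross-reading ones). Of 802 values of named genes under the alternatives, 655 kept direction and side of the threshold, 96 lost the call, 43 gained it and 8 turned sign. The causes were not tested.

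With the replicate number as a block, 6 genes were called lower (IDH2 and NDUFB3 added, 10.5% of all genes) and 10 probe sets. Over all probe sets, deviations of equally numbered monolayers and spheroids correlated at 0.09, -0.01 and 0.02, against -0.08 to 0.05 at unequal numbers. The numbers were therefore not taken to pair the cultures. A tie of equal numbers within a smaller set of genes was not tested. Dim probe sets, without detection calls, carry the least certain values, and intervals of 5 genes reach beyond a 2-fold change.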
